A study of Mus musculus with 6 samples.

Results

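The ErbB receptors and their EGF-type ligands were examined in lung metastases of mouse mammary tumours. The family was taken as 10 genes chosen by name, the ligands Areg, Ereg, Egf, Tgfa, Hbegf, Btc and Nrg1 and the receptors Egfr, Erbb2 and Erbb3. A probe set was used when the platform annotation gave it 1 of these symbols and no other. This gave 17 probe sets for 8 of the 10 genes, out of 20380 probe sets with 1 gene symbol and 12393 genes with such a probe set. No probe set carried the symbol Areg or Nrg1 in the annotation used here, so these 2 ligands were not analysed here. For each of the 8 genes the probe set with the highest mean over the 6 arrays was the main one.

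The samples were 3 metastases from MMTV-Myc mice labelled E2F2 KO (knockout) and 3 from MMTV-Myc mice labelled E2F3 Het (heterozygous), all of the FVB strain. In every sample the Myc oncogene is driven by the mouse mammary tumour virus promoter, which is active mainly in mammary epithelium. E2F2 and E2F3 are transcription factors of the cell cycle. Metastases with both E2F genes intact and primary tumours were not analysed here, so each value below sets the E2F2 KO samples against the E2F3 Het samples and not against a wild type. The Het arrays share a number in their titles and are numbered there as metastases 2, 1 and 3, given here as Het replicates 1, 2 and 3, whereas each KO title carries a number of its own. The Het arrays therefore probably came from 1 mouse, and genotype and mouse of origin cannot be told apart.

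EGF-type ligands are made as membrane-bound precursors that proteases of the ADAM family cut free. The released ligand binds an ErbB receptor, the receptor pairs with another family member, and its kinase starts the Ras-MAPK and PI3K-Akt pathways. Egf, Tgfa, Areg, Ereg, Hbegf and Btc bind the EGF receptor encoded by Egfr, and Ereg, Hbegf and Btc also bind ErbB4. Neuregulin 1, encoded by Nrg1, binds ErbB3 and ErbB4. ErbB2 has no ligand of its own and ErbB3 has a very weak kinase, so both act as partners in receptor pairs. In the mammary gland, amphiregulin and EGFR act in duct growth and neuregulin and ErbB3 in luminal and alveolar growth. On mouse chromosome 5 the genes Epgn, Ereg, Areg and Btc lie next to each other as consecutive protein-coding genes of the GRCm38.p6 assembly.

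The arrays were brought by the authors to a common trimmed mean of 500.2, and their median signals lay between 137.6 and 164.8. Het replicate 1 stood apart in RNA quality controls, with a 3' to 5' signal ratio of 2.37 for actin against 1.48 to 1.73 on the other arrays. The KO labels could not be checked, as E2f2 was not analysed here, and E2f3 had a signal of 91.4 to 137.9 on KO arrays and 73.0 to 144.2 on Het arrays. Luminal epithelial marker genes had a summed signal of 45605 to 51062 on KO arrays and 46896 to 55381 on Het arrays. Lung alveolar marker genes were also bright on every array, at a summed signal of 14357 to 72940 in KO and 21764 to 34739 in Het. In such bulk samples, fewer cells of a type and less RNA per cell cannot be told apart.

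The promoters of Egf and Tgfa are shown because these ligands had arrays that did not overlap between the groups and are in the RefSeq promoter table used here, Egf lower and Tgfa higher in KO metastases. Of the 10 genes, 6 are in that table. Each stretch has 250 bases before and 50 after an annotated start in the GRCm38.p6 assembly, and capitals mark the GC box GGGCGG or its reverse complement, the letters bound by Sp1-type factors. The Egf stretch lies at chr3:129755273-129755572 on the minus strand and the Tgfa stretch at chr6:86194972-86195271 on the plus strand.
Egf: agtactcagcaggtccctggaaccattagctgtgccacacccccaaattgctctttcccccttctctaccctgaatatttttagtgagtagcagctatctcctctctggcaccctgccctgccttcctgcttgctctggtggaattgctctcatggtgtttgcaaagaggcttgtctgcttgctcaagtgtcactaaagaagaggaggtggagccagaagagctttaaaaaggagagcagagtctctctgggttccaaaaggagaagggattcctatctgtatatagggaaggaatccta
Tgfa: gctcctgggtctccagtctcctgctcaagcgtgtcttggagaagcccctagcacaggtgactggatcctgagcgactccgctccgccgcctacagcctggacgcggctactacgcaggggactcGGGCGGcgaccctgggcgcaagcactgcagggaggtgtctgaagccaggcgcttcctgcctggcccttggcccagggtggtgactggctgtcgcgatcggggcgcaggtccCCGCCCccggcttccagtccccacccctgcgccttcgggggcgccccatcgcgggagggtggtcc
The Tgfa stretch was 70.7% G and C and held 2 GC boxes. The Egf stretch was 49.0% G and C and held 0, as did the stretch of a second annotated Egf start, not shown, at 52.3%. GC boxes were found in 35.7% of the 32851 promoter stretches of the table. The E-box CACGTG, the letters bound by Myc with its partner Max, was in neither stretch on either strand and in 7.15% of all stretches. The E2F letters TTTGGCGC, TTTCGCGC, TTTCCCGC and TTTGCCGC were also in neither, and in 2.26% of all stretches.

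In the family as a whole, none of the members passed the test between E2F2 KO and E2F3 Het metastases. Signals were transformed to log2(signal + 16), and KO samples were compared with the average of the Het arrays with limma, a linear model with a spread shared across probe sets. Over all 13575 probe sets kept after a filter on dim signals, 0% had a Benjamini-Hochberg adjusted p under 0.05, the threshold used, and 2.22% (301) had an unadjusted p under 0.05. With each array as a sample the adjusted share was also 0%, and the unadjusted share was 10.3% (1394). This second fit counts the Het arrays, probably from 1 mouse, as separate samples, so its p-values can be too small. Of the 5 members that passed the filter, 1 in the first fit and 2 in the second had an unadjusted p under 0.05; Hbegf was among both. An exact test of 3 arrays against 3 cannot give a p below 0.1. For 5 of the 8 members all KO arrays lay on the same side of all Het arrays, 3 higher and 2 lower in KO. Among all 12393 genes, each by its brightest probe set, KO and Het arrays were separate in this way for 14.3%, with 6.04% higher and 8.3% lower in KO. The members' count is above this background, but the members were chosen with earlier results of these data known. No test of that excess was made. Over all 17 probe sets of the members, 6 had no overlap, and among the 9 dimmer ones 1 had none. The 5 members without overlap on the main probe set were Hbegf, Ereg and Tgfa on the higher side and Egf and Erbb3 on the lower side. Btc, Egfr and Erbb2 overlapped.

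**Figure D1:**
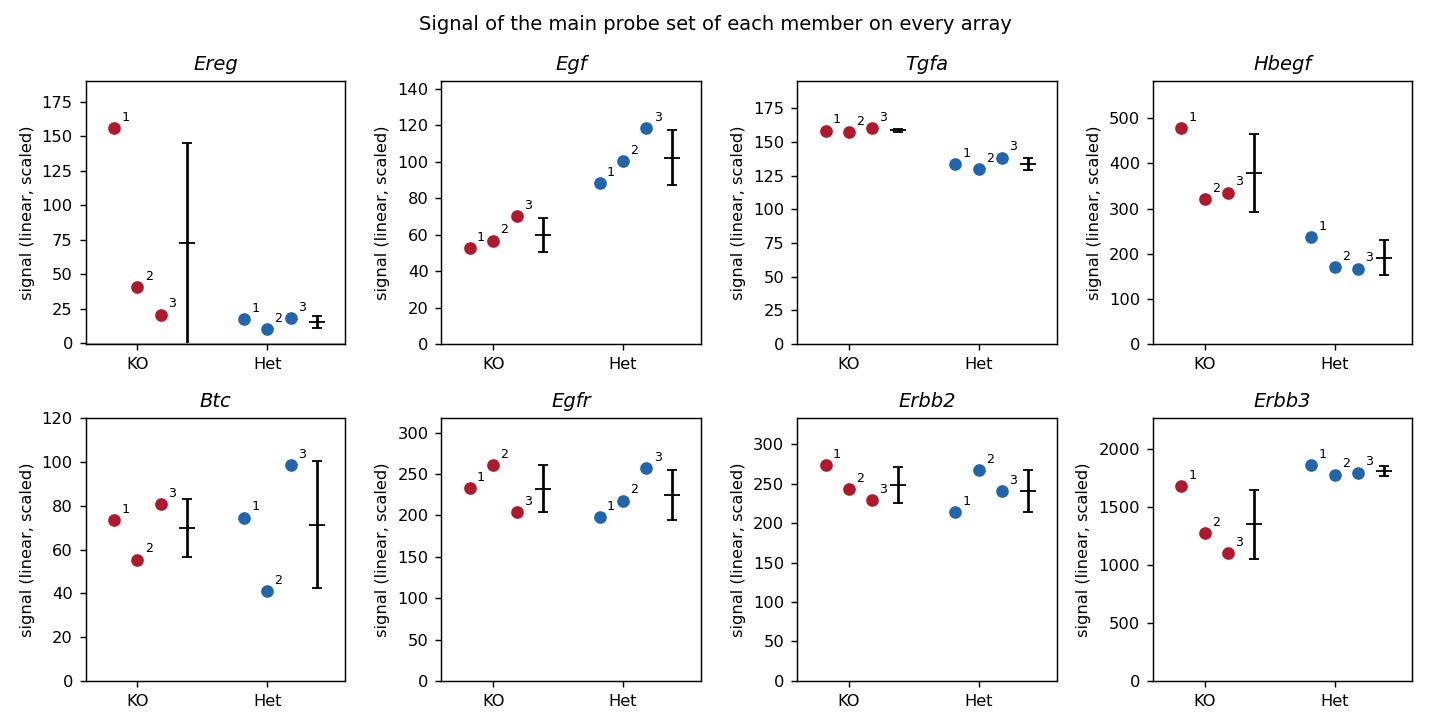
Signal on a linear scale (vertical axis) of the main probe set of each of the 8 members on each array, KO arrays in red at the left and Het arrays in blue at the right, numbered by replicate. Black marks show the group mean and SD over 3 arrays. All 3 KO arrays of Hbegf lie above all Het arrays, those of Egf and Erbb3 lie below, and Btc, Egfr and Erbb2 overlap.

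Hbegf encodes heparin-binding EGF-like growth factor, a ligand of EGFR and ErbB4 induced by stress and by Ras-MAPK signals. Its main probe set had a signal of 477.1, 321.7 and 335.5 on KO arrays 1, 2 and 3 and of 237.1, 171.0 and 167.1 on Het arrays 1, 2 and 3. Every KO array was above every Het array, with Het replicate 1, the array that stood apart in RNA quality, the nearest of them. KO metastases averaged 378.1 ± 86.0 and Het metastases 191.7 ± 39.4 (SD, n = 3 each). On the log2 scale KO minus Het came to 0.92 (SE 0.31, with an adjusted p of 0.9999 from limma), and limma with each array as a sample gave an adjusted p of 0.36 and an unadjusted p of 0.0030. The fit with each array as a sample counts the Het arrays, probably from 1 mouse, as separate samples, so its p-values can be too small. Of all genes, 2.36% had a larger absolute difference than this probe set. Leaving out 1 array at a time, the difference lay between 0.75 and 1.07. The second Hbegf probe set was dimmer, with 214.9, 131.6 and 112.0 in KO and 126.4, 117.6 and 111.5 in Het metastases. There the groups overlapped, KO replicates 1 and 2 lay above the Het arrays and KO replicate 3 among them, and the log2 difference was 0.28 (SE 0.41).

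Ereg encodes epiregulin, a ligand of EGFR and ErbB4 that is usually low in resting tissue and induced in wounds and tumours. It was dim, with its mean at percentile 27.5 of all probe sets, and was left out by the filter. Its signal was 155.9, 40.6 and 20.7 on KO arrays 1, 2 and 3 and 17.8, 10.5 and 18.3 on Het arrays 1, 2 and 3. KO replicate 1 was far above the rest, KO replicate 2 was above all Het arrays, and KO replicate 3 was close to Het replicate 3. The log2 difference was 1.18 (SE 0.89, limma adjusted p of 0.9999 with no filter), with the Het signals close to the added 16. With 64 added it was 0.65, below Hbegf at 0.78 on that scale, and with 1 added it was 1.70. Leaving out KO replicate 1 gave 0.54, below Hbegf at 0.75, with the remaining KO arrays still above the Het arrays, and leaving out KO replicate 3 gave 1.66. Of the 8 members, Ereg was the 1 member that spanned at least 1.5 log2 units over the 6 arrays. The genes with the most similar pattern over the 6 arrays were Fmo2, which encodes a flavin monooxygenase abundant in lung, and Gdpd1, with root mean square differences of 0.12 and 0.15 between centred log2 values. Fmo2 had a signal of 880.6, 282.8 and 201.3 on KO arrays and 190.1, 156.6 and 172.1 on Het arrays. The lung alveolar marker list had the same order within KO, with list means of 1.41, 0.39 and -1.04 on KO arrays 1, 2 and 3 relative to the mean of the 6 arrays. On Het arrays 1, 2 and 3 that list was at 0.28, -0.62 and -0.42, and 11 of its 12 measured genes had a higher log2 mean in KO. The part of lung tissue in the Ereg values was not tested.

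Egf encodes the epidermal growth factor precursor. Its signal was 52.6, 56.8 and 70.4 on KO arrays and 88.3, 100.2 and 118.3 on Het arrays, so every KO array was below every Het array. KO metastases averaged 59.9 ± 9.30 and Het metastases 102.2 ± 15.1 (SD, n = 3 each). The log2 difference was -0.64 (SE 0.37, limma adjusted p of 0.9999 with no filter), and it lay between -0.73 and -0.54 leaving out 1 array at a time. Egf was just under the filter, at percentile 39.98 where 40 was needed. Of the 5 ligands measured it was the 1 with a negative log2 difference.

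Tgfa encodes transforming growth factor alpha, an EGFR ligand of epithelial cells. Its main probe set had a signal of 158.4, 157.4 and 159.9 on KO arrays and of 133.7, 129.6 and 138.3 on Het arrays. The groups did not overlap and both were tight, with KO metastases at 158.6 ± 1.26 and Het metastases at 133.9 ± 4.38 (SD, n = 3 each). The difference was small, at 0.22 on the log2 scale (SE 0.27, limma adjusted p of 0.9999), or 1.18 as a ratio of mean signals. The 2 dimmer Tgfa probe sets overlapped between the groups, with log2 differences of 0.01 and -0.04, so the small offset was seen in 1 of 3 probe sets.

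Btc encodes betacellulin, a ligand of EGFR and ErbB4. Its main probe set had 73.5, 55.5 and 80.8 on KO arrays and 74.6, 41.0 and 98.6 on Het arrays, and the Het arrays enclosed the KO arrays. The log2 difference was 0.02 (SE 0.38, no filter), and its sign turned with single arrays. The dimmer Btc probe set had 35.8, 33.0 and 32.6 in KO and 21.8, 21.5 and 29.7 in Het metastases, with no overlap and a log2 difference of 0.31. Both Btc probe sets were under the filter.

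Erbb3 encodes the neuregulin receptor ErbB3, typical of luminal epithelium. Its main probe set was the brightest of the family's 17, at percentile 89.9 of all probe sets. The signal was 1679, 1275 and 1101 on KO arrays and 1862, 1780 and 1799 on Het arrays. Every KO array was below every Het array, with KO replicate 1 nearest to them. KO metastases averaged 1352 ± 297 and Het metastases 1814 ± 43.0 (SD, n = 3 each), and the Het arrays were much tighter. The log2 difference was -0.44 (SE 0.30, limma adjusted p of 0.9999), and limma with each array as a sample gave an adjusted p of 0.43 and an unadjusted p of 0.032. As for Hbegf, p-values from each array as a sample can be too small, since the Het arrays probably share 1 mouse. Leaving out KO replicate 1 gave -0.61 and leaving out KO replicate 3 gave -0.31. The second Erbb3 probe set had signals from 1.76 to 27.9, near the bottom of the table, and is not read as a level. Luminal marker genes differed in both directions, with 6 of 11 higher and 5 lower in KO. The transcription factor gene Gata3 was at -1.06 and Foxa1 at 1.08, each with no overlap. The arrays of the other measured luminal genes overlapped. Of these, Elf5, Cldn4, Krt19 and Cldn3 were at -0.72, -0.49, -0.42 and -0.15. Kit, Krt18, Epcam, Cdh1 and Krt8 were at 0.40, 0.21, 0.11, 0.05 and 0.01. All were named after their values were seen. The luminal list means, in which these cancel, were 0.07, -0.15 and -0.06 on KO arrays 1, 2 and 3 and -0.05, 0.15 and 0.03 on Het arrays 1, 2 and 3.

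Erbb2 encodes the partner receptor ErbB2, whose gene lies next to Mien1 and Grb7 on mouse chromosome 11. Its probe set had a signal of 273.4, 242.9 and 229.0 on KO arrays and of 214.2, 266.8 and 240.9 on Het arrays. The groups overlapped almost fully, with KO metastases at 248.4 ± 22.7 and Het metastases at 240.6 ± 26.3 (SD, n = 3 each) and 0.04 between them on the log2 scale (SE 0.26, limma adjusted p of 0.9999). All 6 arrays lay within 0.33 log2 units. Grb7, the adaptor gene beside it, had a mean signal in KO metastases of 245.7 ± 90.2 and in Het metastases of 236.1 ± 24.3 (SD, n = 3 each).

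Egfr had 5 probe sets, more than any other member. Its main one had 232.8, 260.8 and 204.1 on KO arrays and 198.3, 217.9 and 257.2 on Het arrays, a difference of 0.05 on the log2 scale (SE 0.27, limma adjusted p of 0.9999). The second had 280.9, 271.9 and 162.1 on KO arrays and 180.2, 188.1 and 200.3 on Het arrays, a difference of 0.27 (SE 0.38). On that probe set KO replicates 1 and 2 were above all Het arrays and KO replicate 3 was below them. The other 3 were under the filter, with differences of 0.30, 0.05 and 0.60. All 5 Egfr probe sets had a positive difference, and all 5 overlapped between the groups.

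**Figure D2:**
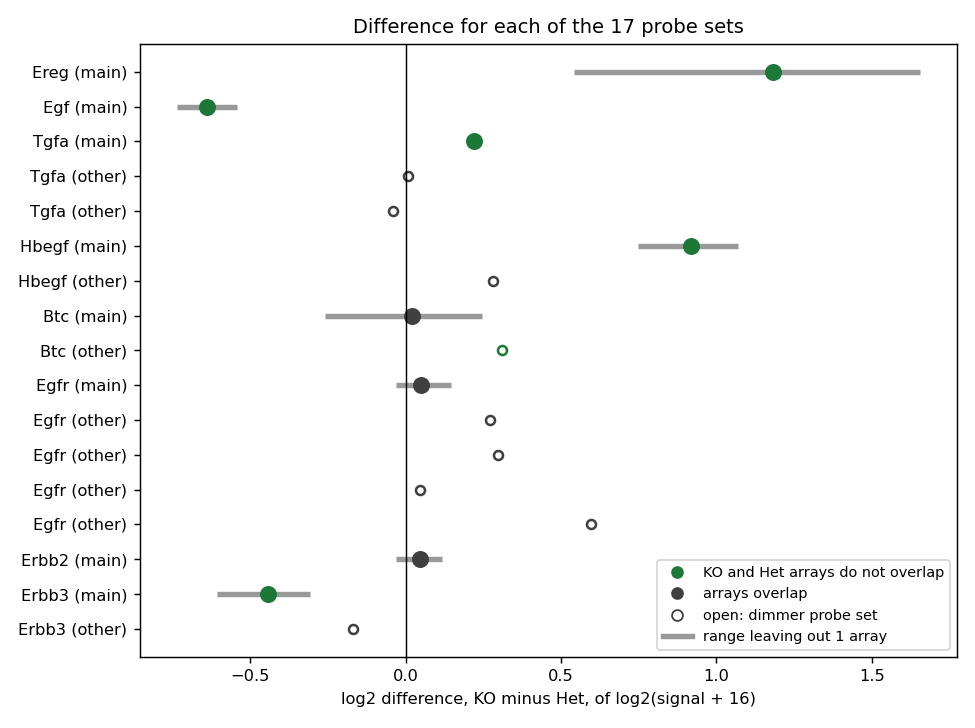
Log2 difference of KO minus Het (horizontal axis) for each of the 17 probe sets, with filled points for the main probe set of a gene, open points for dimmer ones, and green where KO and Het arrays do not overlap. Grey bars show the range over leaving out 1 array at a time. Among main probe sets with 16 added, Ereg is at 1.18 and Hbegf at 0.92 on the right, an order that turns with 64 added or without KO replicate 1, and Egf is at -0.64 on the left.

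Of the family genes outside the 10, probe sets were found for Epgn, Nrg3, Nrg4 and Erbb4. All 4 were under the filter and overlapped between the groups. Epgn, the chromosome 5 neighbour of Ereg, had 29.0, 31.6 and 45.8 on KO arrays and 69.7, 46.2 and 41.7 on Het arrays. Erbb4 signals ran from 1.01 to 20.4. These low signals do not show whether the genes were expressed, since detection calls were not used.

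The pathway around the receptors was described with lists of genes, and none of the listed genes passed the limma test in either direction. As background, KO and Het arrays were separate for 16.4% of the 7957 genes that passed the filter, 5.83% higher and 10.5% lower in KO. The median log2 difference over all probe sets tested was -0.02. Of 9 measured genes that release ligands or restrain their release, 3 were higher and 6 lower in KO, with a median of -0.08. Adam10, a main protease for Egf and Btc, had 2435, 2494 and 2119 on KO arrays and 2945, 2944 and 2763 on Het arrays. The log2 difference of Adam10 was -0.30 (SE 0.20), but its 2 dimmer probe sets went the other way, at 0.60 and 0.43. Adam8 was at -0.55 (SE 0.30), Timp3, an inhibitor of ADAM proteases, at 0.53 (SE 0.45) and Adam19 at 0.62 (SE 0.69). Adam8 and Adam10 were the 2 genes of this list whose arrays did not overlap. Adam17, the main protease for Hbegf, Tgfa, Areg and Ereg, had a mean signal in KO metastases of 862.1 ± 55.9 and in Het metastases of 940.3 ± 191.1 (SD, n = 3 each); it lay outside the naming rule and is given for its known role.

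Genes that restrain or remove the receptors had a median difference of 0.13, with 9 of 12 higher in KO and 0 of 12 without overlap. Cbl, the ubiquitin ligase that marks EGFR for degradation, had 382.0, 375.5 and 439.0 on KO arrays and 379.0, 17.3 and 65.8 on Het arrays. The log2 difference of Cbl was 2.01, yet Het replicate 1 lay within the KO range. The fit gave an SE of 0.25 for Cbl because it averages the Het arrays and does not see their spread. Rnf41, which removes ErbB3, was at 0.15 (SE 0.23), and the phosphatases Ptprj and Ptprg were at 0.17 (SE 0.27) and 0.22 (SE 0.36). The other probe sets of Rnf41 were at 0.15 and -0.26 and those of Ptprj, all dim, at 0.86, 0.63 and -0.04.

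Among 16 receptor partners and adaptors, 6 were higher and 10 lower in KO, with a median of -0.08, and the arrays of 5 did not overlap. Muc4, a membrane mucin that binds ErbB2, had 56.9, 78.0 and 57.3 on KO arrays and 201.0, 288.9 and 344.7 on Het arrays, a log2 difference of -1.86 (SE 0.34). Cd44, which can hold Hbegf at the cell surface, had 2419, 2902 and 1735 on KO arrays and 1340, 1360 and 1337 on Het arrays, a difference of 0.77 (SE 0.32). All KO arrays were below the Het arrays for Muc4 and above them for Cd44. The adaptor Nck1 was at 0.59 (SE 0.25) and the EGFR substrate Eps8 at 0.62 (SE 0.40), both with no overlap. Erbin, an ErbB2-binding scaffold chosen after its values were seen as the 1 remaining gene without overlap, was at -0.31 (SE 0.24).

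Of the core pathway genes below the receptors, 5 of 6 measured Ras-MAPK genes were lower in KO, with a median of -0.15. The same held for 5 of 6 PI3K-Akt genes, with a median of -0.13. Each of these lists named 13 genes, of which 7 had a probe set and 6 passed the filter. Of all 7957 genes, 43.4% had a positive difference. Single arrays moved these medians, that of the Ras-MAPK genes to -0.05 without KO replicate 1, -0.26 without KO replicate 2, -0.22 without Het replicate 1 and -0.09 without Het replicate 3, and that of the PI3K-Akt genes to -0.07 without KO replicate 2. Map2k2, which encodes a MAPK kinase, had 442.6, 391.8 and 528.2 on KO arrays and 659.7, 585.9 and 687.9 on Het arrays, a log2 difference of -0.50 (SE 0.27) with no overlap. Its other probe set was at -0.45. Nras was at -0.26 (SE 0.23), Map2k1 at -0.18 (SE 0.28) and the ribosomal S6 kinase gene Rps6ka3 at 0.08 (SE 0.24). The other probe sets were at -0.17 and 0.03 for Nras. Those of Rps6ka3 were at -0.12 and, on a dim probe set under the filter, at 1.07. Pik3r1, the regulatory subunit of PI3K, had 1155, 1545 and 1789 on KO arrays and 1768, 2958 and 3507 on Het arrays, so KO replicate 3 just overlapped Het replicate 1. The difference of Pik3r1 was -0.83 (SE 0.30), with its other probe sets at -0.07 and -0.73. Pik3r2 was at -0.19 (SE 0.24) with no overlap, Pik3ca, the catalytic subunit, at -0.18 (SE 0.28) and Akt2 at 0.09 (SE 0.23). Second probe sets were at 0.24 for Pik3ca and 0.71 for Akt2.

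Genes known to be induced by MAPK signals, many of which feed back on it, were mostly brighter in KO metastases. Of 12 measured, 11 had a higher log2 mean in KO, and for 5 of 12 every KO array was above every Het array, beside the background of 5.83%. The list median was 0.53. Without the filter, 13 of 16 genes of the list were higher, with a median of 0.47. The list, like the members, was chosen with earlier results of these data known. None of the 12 passed the test, and 4 further genes of the list with a probe set were under the filter. Dusp6, a phosphatase that inactivates ERK, had 2024, 1489 and 647.0 on KO arrays and 574.9, 420.0 and 444.1 on Het arrays. KO replicates 1 and 2 were far above the Het arrays and KO replicate 3 only just above, and the log2 difference was 1.37 (SE 0.62). Ccnd1, which encodes cyclin D1, had 2820, 2981 and 1850 on KO arrays and 1661, 604.8 and 933.4 on Het arrays, a difference of 1.33 (SE 0.32), with its other probe sets at 1.36 and 0.98. The early response gene Ier3 was at 0.87 (SE 0.33), and the transcription factor Etv5 at 0.70 (SE 0.38) with its other probe set at 1.11. Plaur at 0.50 and Epha2 at 0.43, named after their values were seen, completed the 5 without overlap. Spred2, named likewise, was the 1 gene with a lower log2 mean, at -0.13. Phlda1, also named likewise, had the smallest of the 11 positive differences, at 0.005. Its KO replicate 3, at 1091, lay below all Het arrays, at 2537 to 2725.

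The list means of the MAPK output genes were 0.66, 0.33 and -0.12 on KO arrays 1, 2 and 3 and -0.20, -0.40 and -0.27 on Het arrays 1, 2 and 3, relative to the mean of the 6 arrays. All KO arrays were above all Het arrays, with KO replicate 3 close to Het replicate 1. Within KO the order was that of the alveolar list given above and of the endothelial markers, at 0.70, 0.39 and -0.54 on KO arrays 1, 2 and 3 and 0.19, -0.39 and -0.36 on Het arrays 1, 2 and 3. Fibroblast markers were at 0.56, 0.25 and -0.14 on the KO arrays and -0.13, -0.35 and -0.19 on the Het arrays. Their summed signal was 7186 to 10070 in KO and 6037 to 6384 in Het metastases, with 7 of 8 measured genes higher in KO and a median difference of 0.58. The arrays of 5 of the 8 fibroblast genes did not overlap, all 5 higher in KO, beside 5 of 12 in the MAPK output list. For endothelial markers 9 of 10 were higher, with a summed signal of 1743 to 4219 in KO and 1927 to 3197 in Het metastases. The part of these cell types in the MAPK output values was not tested. Without KO replicate 1 the output list had a median of 0.30 with 10 of 12 genes higher, and without KO replicate 3 a median of 0.73 with 12 of 12 higher. Leaving out both KO replicate 1 and Het replicate 2 gave the lowest median, 0.25 with 10 of 12 higher, and leaving out both KO replicate 1 and Het replicate 1 gave 0.34 with 10 of 12 higher.

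**Figure D3:**
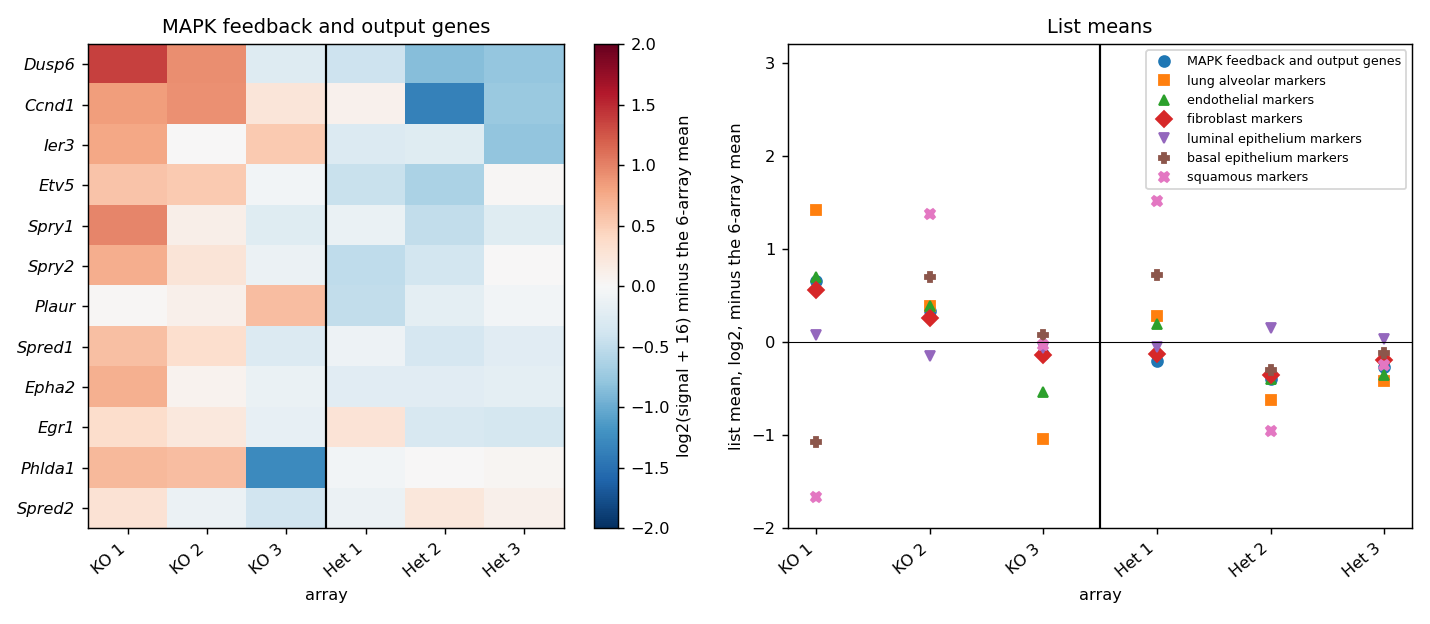
Left, log2(signal + 16) minus the 6-array mean for each of the 12 MAPK feedback and output genes (rows) on each array (columns, KO left of the black line, Het right). Right, the mean of the same centred log2 values for that list and for 6 marker lists on each array. The output list lies above its Het values on all KO arrays, and the lung alveolar list runs from 1.41 on KO replicate 1 to -1.04 on KO replicate 3.

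The members did not share 1 pattern over the arrays. Of the 8 main probe sets, 3 were highest on KO replicate 1, namely Ereg, Hbegf and Erbb2, and 2 were highest on Het replicate 3, Egf and Btc. KO replicate 1 was also the array with the lowest basal and squamous markers. Relative to the mean of the 6 arrays, basal markers were at -1.08, 0.70 and 0.08 on KO arrays 1, 2 and 3. On Het arrays 1, 2 and 3 they were at 0.72, -0.31 and -0.11. Squamous markers were at -1.66, 1.37 and -0.03 on the KO arrays and 1.52, -0.95 and -0.24 on the Het arrays. Ereg and Hbegf were highest and Egf was lowest on KO replicate 1, and the part of these markers in that was not tested. Macrophage markers were at -0.13, 0.34 and -0.58 on KO arrays 1, 2 and 3 and 0.09, 0.04 and 0.24 on Het arrays 1, 2 and 3. Their part in the Hbegf values was not tested. Neutrophil markers were at -0.60, 1.35 and 0.56 on the KO arrays and 0.05, -0.82 and -0.55 on the Het arrays, and airway markers at 1.19, -1.16 and -0.47 on the KO arrays and 0.15, 0.40 and -0.11 on the Het arrays. Of the nerve and glia markers 1 gene passed the filter, and of the lymphocyte and the mast cell markers 0.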

How the data were processed

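RNA of 6 lung metastases was measured on 1 Affymetrix array each. The values are intensities on a linear scale that the authors deposited. The submitters' processing notes name MAS5 and Affymetrix Expression Console, whose versions are not given in the sources used here. Equal trimmed means show that the arrays had been scaled. MAS5 detection calls were not used. The number of arrays limits the precision.

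From these values log2(signal + 16) was computed. The 64 control probe sets and the 40% of the others with the lowest mean log2 value were left out, which kept 13575, down to a signal of about 78.4. The Het arrays, which share a title number, entered as 1 averaged sample beside the 3 KO arrays in limma 3.58.1 in R 4.3.3 (lmFit and eBayes with trend, Benjamini-Hochberg adjustment, threshold 0.05). The fit takes the lone Het sample to have the spread of the KO ones. The labels do not state which samples are separate animals, though the KO titles carry different numbers and the Het titles share 1. The p-values of this fit rest on the spread between the KO samples, moderated across probe sets, and leave out the spread between the Het arrays. They measure no spread between Het mice. Members under the filter were read from the same fit without it. Symbols come from the platform annotation, of which 20351 probe sets matched a GRCm38.p6 gene table by Entrez ID. The fit was tested on simulated data. There the fit with the averaged Het sample made no calls among changes near the members' size and called part of the larger ones, so a member that did not pass is not shown to be equal between the groups.

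The members, the 19 gene lists and the tests were chosen with earlier results of these data known. Up to 4 genes per pathway list were named by the largest moderated t. Lists are described by counts and medians, and each gene by its brightest probe set. Alternatives covered the unit of replication, pseudocount, filter, quantile normalization, probe set and arrays left out.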

Additional observations from a re-analysis of the deposited data

How the results depend on the processing

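The count of probe sets past the threshold was 0 under all 15 alternatives, also with 1 array left out at a time. The count of members without overlap was 5 of 8 throughout. Leaving out arrays or changing the filter, the pseudocount or the unit of replication could not lower it. With 1 array out, 22.1% to 37.6% of all genes that passed the filter had no overlap, against 16.4% with all arrays. Among members that passed the filter, 3 of 5 had no overlap, beside 16.4% of all genes that passed. With 60% of probe sets left out, only Hbegf and Erbb3 were left, and 2 of 2 had no overlap, beside 17.3% of 5696 genes. Hbegf, Ereg, Egf and Erbb3 kept their sign under every alternative run. The sign of the other members was open. For Btc it turned with quantile normalization (-0.10) and with KO replicate 1 and Het replicate 2 both out (-0.29), and ranged from -0.26 to 0.25 with 1 array left out. Egfr ranged from -0.03 to 0.14 and Erbb2 from -0.03 to 0.12 with 1 array left out, and with KO replicate 1 and Het replicate 1 both out, a setting chosen after seeing the data, they were at -0.034 and -0.098. Tgfa was at -0.042 on its dimmest probe set. Among the list medians, that of ligand release turned to 0.02 without KO replicate 2, 0.03 without Het replicate 2 and 0.03 with KO replicate 1 and Het replicate 2 both out, that of partners and adaptors to 0.11 without KO replicate 3, and that of receptor restraint to -0.02 with KO replicate 1 and Het replicate 1 out. The causes were not tested. No paired analysis was possible because the labels match no KO metastasis with a Het metastasis. Detection calls were not used, so signals under the filter give no firm level.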
